A study of Homo sapiens with 16 samples.

Results

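The genes described here are 9 members of the S100 family, S100A10, S100A11, S100A6, S100A4, S100A2, S100A13, S100A14, S100A16 and S100P, together with annexin A2 (ANXA2), the binding partner of S100A10. They are 10 of the 62703 genes counted, taken by name because S100A10 differed about 2-fold between siMED12 and siCtrl in 22Rv1 and not in the other lines, so for the members the siMED12 fold changes are given with no p, and counts past the threshold of the fit over all genes only describe them. Of the 10, 9 passed the filter on low counts and were among the 10566 genes tested. S100P did not, with 0 to 18 counts in a library.

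RNA was measured in spheroids of 3 human prostate cancer cell lines, each 1 established line. LNCaP depends on androgen, 22Rv1 responds to androgen but resists the antiandrogen enzalutamide, and PC3 does not respond to it. Cells were transfected with 25 pmol of pooled siRNA, directed against MED12 (siMED12) or non-targeting (siCtrl), were kept in monolayer for 3 days and were then grown as spheroids for 4 days. All 16 libraries therefore carry a transfection. LNCaP had 3 siCtrl and 3 siMED12 libraries, and 22Rv1 and PC3 each had 3 siCtrl and 2 siMED12 libraries, replicates 1 and 3.

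S100 proteins are small calcium-binding proteins that work as dimers and pass calcium signals to their partners inside the cell, and several are also released and act on receptors. S100A10 is an exception in the family because it no longer binds calcium. It joins annexin A2, a protein that binds membrane lipids when calcium is present, in a complex at the plasma membrane that holds plasminogen and its activators at the cell surface, and S100A10 protein without annexin A2 is known to be degraded. The values below are of RNA and say nothing of protein.

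Library totals ran from 479118 to 993807 counts. MED12, the target, was shallow at 5 to 22 counts in a library. In 22Rv1 it was at 23.4, 16.7 and 19.2 CPM in siCtrl and at 7.42 and 8.98 CPM in siMED12, without overlap (log2 fold change −1.28, SE 0.46, edgeR adjusted p = 0.175). In LNCaP (log2 fold change −0.50, adjusted p = 0.878) and PC3 (−0.22, adjusted p = 0.987) the groups overlapped. Levels here are CPM, counts scaled to a common library total with the trimmed mean of M values (TMM), which count 3′ ends and are compared between libraries, not between genes. Of the line markers, KLK3 had 1154 to 2323 counts in LNCaP and 5 to 28 in the other lines, with the 28 in PC3 siMED12 replicate 3. AXL had 29 to 58 counts in PC3 and 0 to 2 elsewhere. TMPRSS2, an androgen target, was low in 22Rv1 siCtrl (15.6 CPM) as in PC3 siCtrl (19.2 CPM), against 304 CPM in LNCaP siCtrl.

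Some libraries held transcripts of another line, and 22Rv1 siMED12 replicate 3 bears on the members most. To see whether PC3 transcripts were present in the others, 37 genes were taken that reached 100 CPM in PC3 siCtrl and were at 2% of that or less in the siCtrl groups of the other lines, none of them a gene of the lists used here. In 22Rv1 siMED12 replicate 3 these genes stood at 5.14% of their PC3 level, against 0.638% to 0.924% in 22Rv1 siCtrl and 0.754% in 22Rv1 siMED12 replicate 1. In LNCaP the share was 0.684% to 0.908%, except for siCtrl replicate 1 with 1.90%. By the same rule, 3 genes restricted to LNCaP stood at 2.99% in PC3 siMED12 replicate 3, against 0.368% to 0.605% in the other PC3 libraries, and 13 restricted to 22Rv1 at 2.77% in PC3 siCtrl replicate 3, against 0.309% to 0.768%. Since most members are abundant in PC3, the siMED12 values of the members in 22Rv1 are also given against the counts that the PC3 share alone would bring, and the fitted ones without replicate 3. The subtraction took off, in each library and for each source line, the excess of the share over the median share of the library's own siCtrl group, times the mean siCtrl level of the source line. Since the rule let the 37 genes reach 2% in the other lines, the share can also hold RNA that these lines make themselves. The counts it would bring can thus be too high. ANXA2 had 2 counts in LNCaP siMED12 where the share would bring 19.4. How these transcripts came into the libraries was not tested.

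The genes lie in known clusters. On GRCh38, S100A10 (ENSG00000197747.9) spans chr1:151982915-151993859 and S100A11 chr1:152032506-152047907, with 38647 bases between them. The other members on this chromosome follow 1486692 bases further on, with S100A6, S100A4, S100A2, S100A16, S100A14 and S100A13 packed into 96761 bases from 153534599 to 153631360. All 8 are on the minus strand. S100P is on chromosome 4 (6693878 to 6697170, plus strand) and ANXA2 (ENSG00000182718.18) on chromosome 15 (60347134 to 60402883, minus strand).

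The 250 bases upstream of the RefSeq start of S100A10, of its partner ANXA2 and of S100A6 (GRCh38.p14, all minus strand, printed 5′ to 3′) are shown because these genes differed in their pattern across the lines, and capitals mark the matches of the motifs searched. They are at chr1:151993860-151994109, chr15:60397987-60398236 and chr1:153535992-153536241.
S100A10: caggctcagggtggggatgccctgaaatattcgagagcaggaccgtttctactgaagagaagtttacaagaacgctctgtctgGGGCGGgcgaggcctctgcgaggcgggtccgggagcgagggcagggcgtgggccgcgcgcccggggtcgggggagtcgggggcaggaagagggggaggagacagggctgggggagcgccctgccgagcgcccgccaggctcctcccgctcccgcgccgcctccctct
ANXA2: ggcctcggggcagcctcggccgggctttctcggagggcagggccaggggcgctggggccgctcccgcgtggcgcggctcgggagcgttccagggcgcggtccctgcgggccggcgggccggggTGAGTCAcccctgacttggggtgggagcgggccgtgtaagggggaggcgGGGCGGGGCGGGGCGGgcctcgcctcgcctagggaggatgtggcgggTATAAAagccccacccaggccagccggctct
S100A6: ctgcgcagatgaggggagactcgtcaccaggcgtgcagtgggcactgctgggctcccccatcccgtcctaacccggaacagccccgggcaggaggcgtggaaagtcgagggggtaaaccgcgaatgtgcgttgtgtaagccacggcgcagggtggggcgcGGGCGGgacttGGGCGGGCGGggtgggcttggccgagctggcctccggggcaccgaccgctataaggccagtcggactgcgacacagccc

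In capitals are the GC box GGGCGG in each of them, the AP-1 motif TGANTCA 127 bases before the ANXA2 start, and the TATA box TATAAA 31 bases before the ANXA2 start. Both strands were searched, and overlapping matches run together in the print. The S100A10 window held 1 GC box, 167 bases before the start, and neither an AP-1 motif nor a TATA box. The ANXA2 window held 3 GC boxes at 78, 73 and 68 bases, and the S100A6 window 3 at 90, 79 and 75 bases. The members have 14 promoters in RefSeq, of which 6 held a GC box, 4 a TATA box, 2 an AP-1 motif (ANXA2 and 1 of those of S100A2) and 0 the E-box CACGTG. Among all 35116 promoters of this length the shares were 42.639%, 10.716%, 6.573% and 6.345%. The GC content was 71.2% for S100A10 and 78.0% for ANXA2, with a median of 58.0% over all promoters. A match only says that these letters occur in the window.

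S100A10 separated the lines in the control state and differed with siMED12 in 22Rv1. In siCtrl it was at 56.3, 47.3 and 44.5 CPM in LNCaP, at 1281, 1205 and 1306 CPM in 22Rv1 and at 1632, 1627 and 1718 CPM in PC3. The 3 lines did not overlap, and the order was PC3, 22Rv1, LNCaP. 22Rv1 siCtrl was 25.85-fold above LNCaP siCtrl (log2 4.69, SE 0.15, edgeR adjusted p = 2.21e-21). PC3 was 33.9-fold above LNCaP (log2 5.08, SE 0.15, adjusted p = 1.8e-22). PC3 was 1.31-fold above 22Rv1 (log2 0.39, SE 0.11), with log2 values of 0.35 to 0.44 over the alternatives tried. These comparisons use siCtrl libraries only, but those of 22Rv1 are also in the contrast by which S100A10 was chosen. A low 22Rv1 siCtrl level would favour both that choice and a higher PC3, so for PC3 over 22Rv1 no p is given. Whether control levels played any further part in the choice of the members is not recorded.

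With siMED12, S100A10 stood at 2709 and 2459 CPM in 22Rv1, or 2555 and 1917 counts. Both libraries were above every 22Rv1 siCtrl library and above every PC3 library. The group mean went from 1264 ± 52.6 (SD, n = 3) to 2584 ± 177 CPM (SD, n = 2), a 2.04-fold difference (log2 1.03, SE 0.12). In LNCaP the siMED12 libraries were at 58.7, 36.0 and 47.1 CPM and in PC3 at 1474 and 1680 CPM, and both lines overlapped their controls. The log2 fold change was −0.05 in LNCaP (SE 0.20, 95% interval −0.44 to 0.34) and −0.07 in PC3 (SE 0.12, interval −0.31 to 0.16). The effect in 22Rv1 was above that in LNCaP by 1.08 (SE 0.23) and above that in PC3 by 1.11 (SE 0.17) on the log2 scale, while PC3 minus LNCaP was −0.03 (SE 0.23). In the fit over all genes S100A10 was the 1 member past the threshold in the first 2 of these differences, beside 0.189% and 0.0946% of all genes. S100A10 was chosen for this pattern, so nothing is read from that. The first is also unsteady, past the threshold in 8 of 24 alternatives and in only 1 of the 16 that leave out a library. The second was past it in 24 of 24, but these alternatives refit the data of the choice and add no evidence. By size, S100A10 was 549th of the 10566 genes from the highest 22Rv1 fold change.

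Of the S100A10 counts, the PC3 share would bring 66.5 of the 1917 counts in 22Rv1 siMED12 replicate 3 and 11.8 of the 2555 in replicate 1. Replicate 1, with its low share, was the higher of the pair. With the carried-over counts subtracted the log2 fold change was 1.04 (SE 0.12), and without replicate 3 it was 1.10 (SE 0.14). Over the 24 alternatives it ran from 0.94 to 1.10. S100A10 took 0.119% to 0.127% of all counts in 22Rv1 siCtrl, and 0.267% and 0.248% in siMED12.

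**Figure D1:**
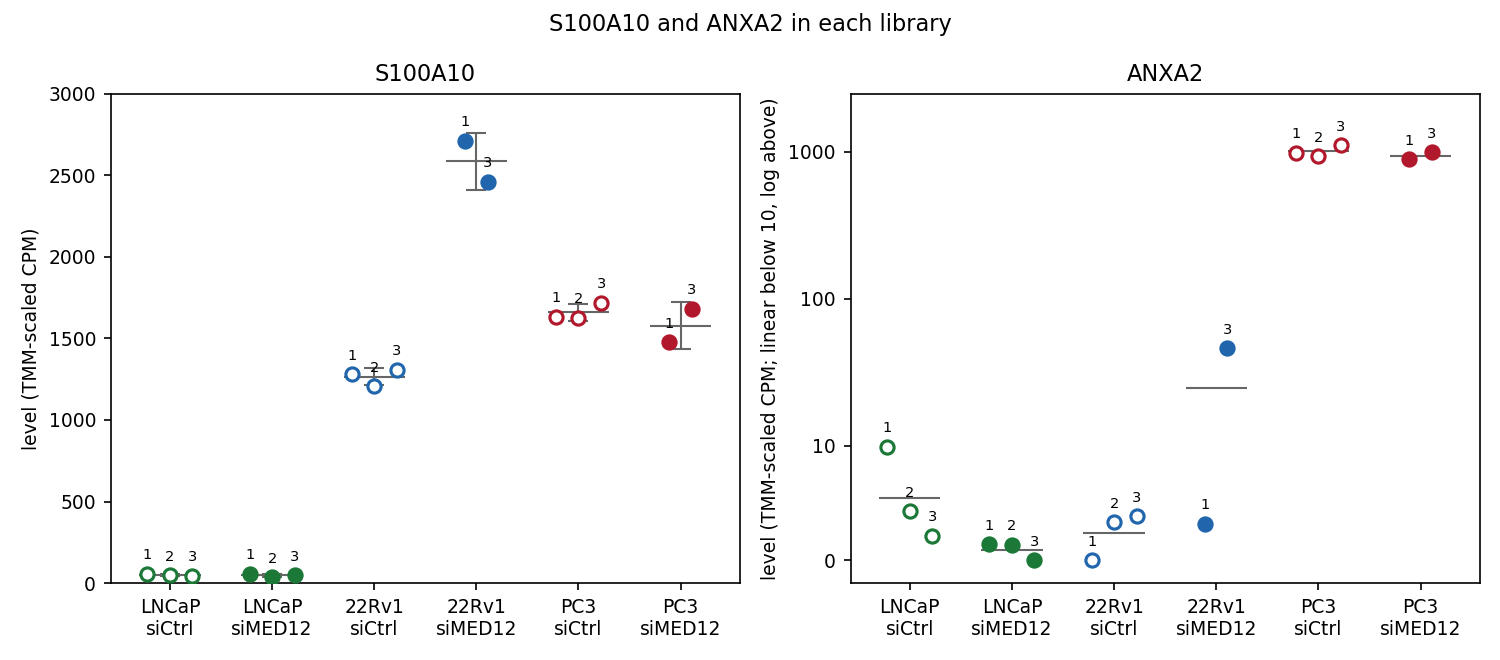
Level of S100A10 (left, linear axis from 0) and ANXA2 (right, axis linear below 10 and logarithmic above) in TMM-scaled CPM in each of the 16 libraries, with replicate numbers. Open points are siCtrl, filled points siMED12, grey lines the group mean, and bars on the left the SD. S100A10 lies at 1205 to 1306 CPM in 22Rv1 siCtrl and at 2459 and 2709 in siMED12, while ANXA2 in 22Rv1 is at 46.2 CPM in siMED12 replicate 3 and at 3.85 or less in the other 22Rv1 libraries.

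ANXA2 did not follow its partner. It was at 992, 937 and 1113 CPM in PC3 siCtrl, but at 9.94, 4.30 and 2.12 CPM in LNCaP siCtrl and at 0, 3.34 and 3.85 CPM in 22Rv1 siCtrl. In counts that is 6, 3 and 2 in LNCaP and 0, 2 and 3 in 22Rv1, so ANXA2 RNA was at or near the limit of detection in both lines, where 3 counts amount to 3.15 to 6.22 CPM in these libraries. The fitted log2 difference was 7.64 (SE 0.34) for PC3 over LNCaP and 8.66 (SE 0.38) over 22Rv1. ANXA2 passed the filter on low counts through PC3 alone and had to differ, so no p is given. The size rests on few counts, with 7.12 to 8.31 and 8.06 to 9.23 when 1 library was left out. LNCaP and 22Rv1 were not told apart at this depth (edgeR adjusted p = 0.437). S100A10 was thus high in 22Rv1 siCtrl where ANXA2 had 5 counts over 3 libraries, fewer than the 17.8 that the PC3 share would bring.

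The ANXA2 value in 22Rv1 siMED12 rested on replicate 3. The 2 libraries had 3 and 36 counts (3.18 and 46.2 CPM), and the fitted log2 fold change was 3.21 (SE 0.75). The PC3 share alone would bring 40.6 counts to replicate 3, more than the 36 observed, and 7.21 to replicate 1. The log2 fold change was 0.62 with carried-over counts subtracted and 0.42 without replicate 3. With siMED12 ANXA2 was at 1.40, 1.33 and 0 CPM in LNCaP, on 1, 1 and 0 counts, and at 894 and 995 CPM in PC3 (log2 fold change −0.10, SE 0.20). ANXA2 reads may also be shared with processed pseudogenes. ANXA2P2, which differs from ANXA2 at 16 of 1020 bases (1.57%), had 7.67% to 10.4% of the ANXA2 counts in PC3.

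The remaining members fell into those restricted to PC3 and those also present in the other lines. S100A2, which is known from basal epithelial cells, was at 1749, 736 and 1293 CPM in PC3 siCtrl, against 9.54 to 28.2 CPM in LNCaP and 3.90 to 10.3 CPM in 22Rv1. S100A14, a neighbour of S100A13 and S100A16 in the gene cluster, was at 746, 640 and 650 CPM in PC3 on 450 to 609 counts, and had 0 to 3 counts in LNCaP and 2 to 4 in 22Rv1. PC3 was 239-fold above LNCaP and 174-fold above 22Rv1 for S100A14, and 81.4-fold and 165-fold for S100A2. In LNCaP and 22Rv1 siCtrl, S100A2 had 34 and 16 counts in all where the PC3 share would bring 30.6 and 22.1, and S100A14 had 6 and 8 where it would bring 16.5 and 11.9.

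S100A6 (calcyclin), which binds the ubiquitin ligase component CACYBP, was at 1702, 1115 and 1169 CPM in PC3 siCtrl, at 52.1, 30.1 and 55.2 CPM in 22Rv1 and at 31.5, 11.5 and 8.48 CPM in LNCaP. The PC3 values lay above all others, and 22Rv1 and LNCaP overlapped in 1 library each. S100A6 in 22Rv1 passed the test against LNCaP (log2 1.56, SE 0.43, edgeR adjusted p = 0.00357). Its 101 counts in 22Rv1 siCtrl compare with 23.3 from the PC3 share, and its 35 counts in LNCaP with 32.3. S100A16 had 1100, 843 and 939 CPM in PC3, and 28.6, 5.01 and 24.4 CPM in 22Rv1 against 16.6, 7.16 and 7.42 CPM in LNCaP (log2 1.04, adjusted p = 0.0708). That p was 0.00758 with carried-over counts subtracted, 0.0289 without LNCaP siCtrl replicate 1 and 0.00884 without 22Rv1 siCtrl replicate 2.

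S100A11, which binds annexin A1, was the member with high values in all lines and had another order. It was at 716, 556 and 602 CPM in LNCaP siCtrl, at 198, 249 and 322 CPM in 22Rv1 and at 1295, 1086 and 1358 CPM in PC3. The 3 groups did not overlap. 22Rv1 was below LNCaP (log2 −1.28, SE 0.16), the reverse of S100A10 38647 bases away. PC3 was 2.00-fold above LNCaP (edgeR adjusted p = 1.09e-06) and 4.85-fold above 22Rv1. S100A11 was also higher with siMED12 in 22Rv1, a contrast known when the members were chosen. A low 22Rv1 siCtrl level would favour that and both differences from 22Rv1, so no p is given for them.

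S100A13, which takes part in the release of FGF1 and interleukin-1 alpha, was at 16.6, 10.0 and 18.0 CPM in LNCaP siCtrl, 29.9, 18.4 and 37.2 in 22Rv1 and 74.8, 63.1 and 73.7 in PC3. The groups did not overlap, and the PC3 share would bring 1.24 of the 63 counts in 22Rv1 and 1.71 of the 34 in LNCaP. 22Rv1 was above LNCaP (log2 0.94, SE 0.32, edgeR adjusted p = 0.0163), but the S100A13 call was lost without LNCaP siCtrl replicate 2 (log2 0.76, adjusted p = 0.0817) or without 22Rv1 siCtrl replicate 3 (log2 0.72, adjusted p = 0.121). S100A4, known as metastasin, was uneven in PC3 siCtrl at 150, 21.0 and 76.6 CPM, with 4, 4 and 15 counts in 22Rv1 and 1 in each LNCaP library. PC3 was 7.38-fold above 22Rv1 (adjusted p = 6.95e-06), and its ratio to LNCaP was 58.5 with a 95% counting interval of 19.7 to 286 on 3 LNCaP counts. S100A4 in 22Rv1 against LNCaP missed the threshold (log2 2.85, SE 1.20, adjusted p = 0.0513) and passed it in 12 of the 23 alternatives in which it was tested. S100P, released by some carcinomas, had 18, 5 and 8 counts in PC3 siCtrl and 1 to 5 in every other siCtrl library.

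Of the 9 tested members, 9 were higher in PC3 than in LNCaP and 9 higher than in 22Rv1, where 29.2% and 28.7% of all tested genes were. Several members passed the filter on low counts through PC3 alone, so these counts describe the members and support nothing further. In 22Rv1 against LNCaP 3 members were higher (S100A10, S100A6 and S100A13) and 1 lower (S100A11), where 22% and 21.2% of all genes were called. The 3 comparisons share their siCtrl groups.

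**Figure D2:**
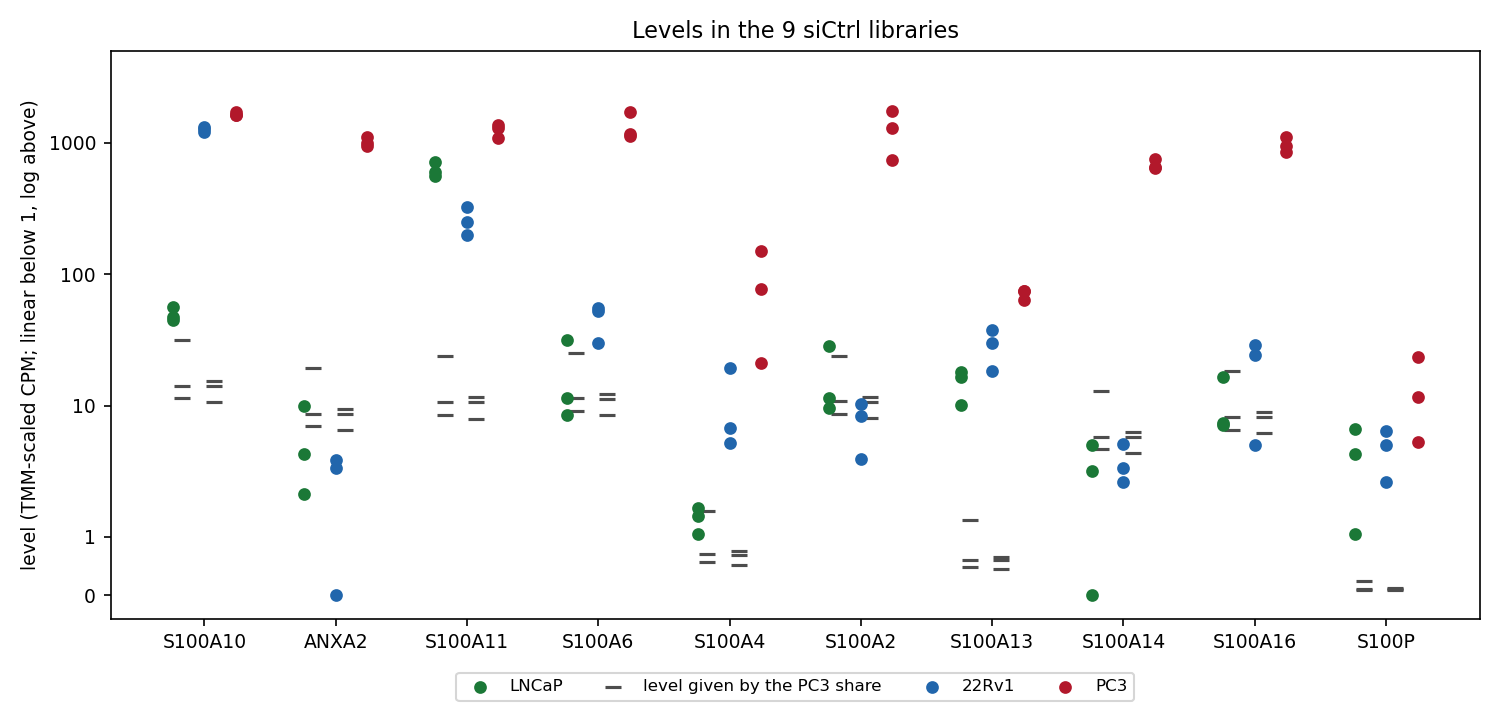
Level in TMM-scaled CPM (axis linear below 1 and logarithmic above) of the 10 members in the 9 siCtrl libraries, with dashes for the level that the share of PC3-restricted genes would bring to each LNCaP and 22Rv1 library. Levels are to be compared between lines within a gene. S100A10 in 22Rv1 lies far above the dashes at 1205 to 1306 CPM, whereas ANXA2 and S100A14 lie at or below them in most LNCaP and 22Rv1 libraries.

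With siMED12 in 22Rv1, 4 of the 9 tested members were past the threshold and higher (S100A10, ANXA2, S100A11 and S100A6), beside 0.994% of all tested genes. The siMED12 and siCtrl libraries did not overlap for 5 of 9 (S100A10, S100A11, S100A6, S100A13 and S100A16, all higher), beside 13.8%. The members were chosen on this contrast, so nothing is read from these counts. The median log2 fold change was 1.23 for the members and 0.0061 for all genes. With carried-over counts subtracted 2 members remained past the threshold, S100A10 and S100A11, and without 22Rv1 siMED12 replicate 3 only S100A10 did. Without 22Rv1 siMED12 replicate 1, which leaves the library with PC3 transcripts as the sole siMED12 sample of that line, 7 did.

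S100A11 was at 330 and 532 CPM in 22Rv1 siMED12, against 198 to 322 CPM in siCtrl. The lower of these, replicate 1, was just above the highest control. The log2 fold change was 0.74 (SE 0.18), 0.69 (SE 0.17) with carried-over counts subtracted and 0.36 (SE 0.20) without replicate 3. The PC3 share would bring 50.0 of the 415 counts in replicate 3 and 8.87 of the 311 in replicate 1. With the excess over the siCtrl share subtracted, 373 of the 415 counts were left. S100A11 in replicate 3 then stayed higher than in replicate 1, at 478 against 330 CPM.

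S100A6 was at 70.0 and 165 CPM, against 30.1 to 55.2 CPM in siCtrl. Of its 129 counts in replicate 3 the PC3 share would bring 53.3, and of its 66 in replicate 1 it would bring 9.45. The log2 fold change was 1.30 (SE 0.32) as deposited, 0.96 (SE 0.27) after subtraction and 0.58 without replicate 3. S100A16 was similar, with 31.8 and 66.7 CPM against 5.01 to 28.6 CPM. The PC3 share would bring 38.5 of its 52 counts in replicate 3, and its log2 fold change went from 1.23 (SE 0.36) to 0.56 after subtraction and 0.64 without replicate 3. S100A13, to which the PC3 share would bring 2.83 of 31 counts in replicate 3, was at 49.8 and 39.8 CPM against 18.4 to 37.2 CPM. Its log2 fold change was 0.62 (SE 0.27), 0.61 after subtraction and 0.77 without replicate 3.

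For the members restricted to PC3, the excess in 22Rv1 siMED12 was in replicate 3 alone. S100A2 was at 7.42 and 51.3 CPM, and the 40 counts of replicate 3 compare with 50.5 from the PC3 share. S100A14 had 2 and 22 counts, and the 22 compare with 27.2. Their log2 fold changes of 1.87 each became −0.74 for S100A2 and −1.53 for S100A14 after subtraction, and −0.0065 and −0.77 without replicate 3. S100A4 had 2 and 14 counts against 4, 4 and 15 in siCtrl (log2 fold change −0.19, SE 0.84), and the PC3 share would bring 3.30 of the 14. The S100A4 value was −0.46 after subtraction and −2.25 (SE 1.39) without replicate 3, and it turned to 0.72 without siMED12 replicate 1 and to 0.65 without siCtrl replicate 3, so these counts give it no direction. S100P had 5 and 3 counts, where the PC3 share would bring 0.0950 and 0.535, against 2, 3 and 5 in siCtrl.

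**Figure D3:**
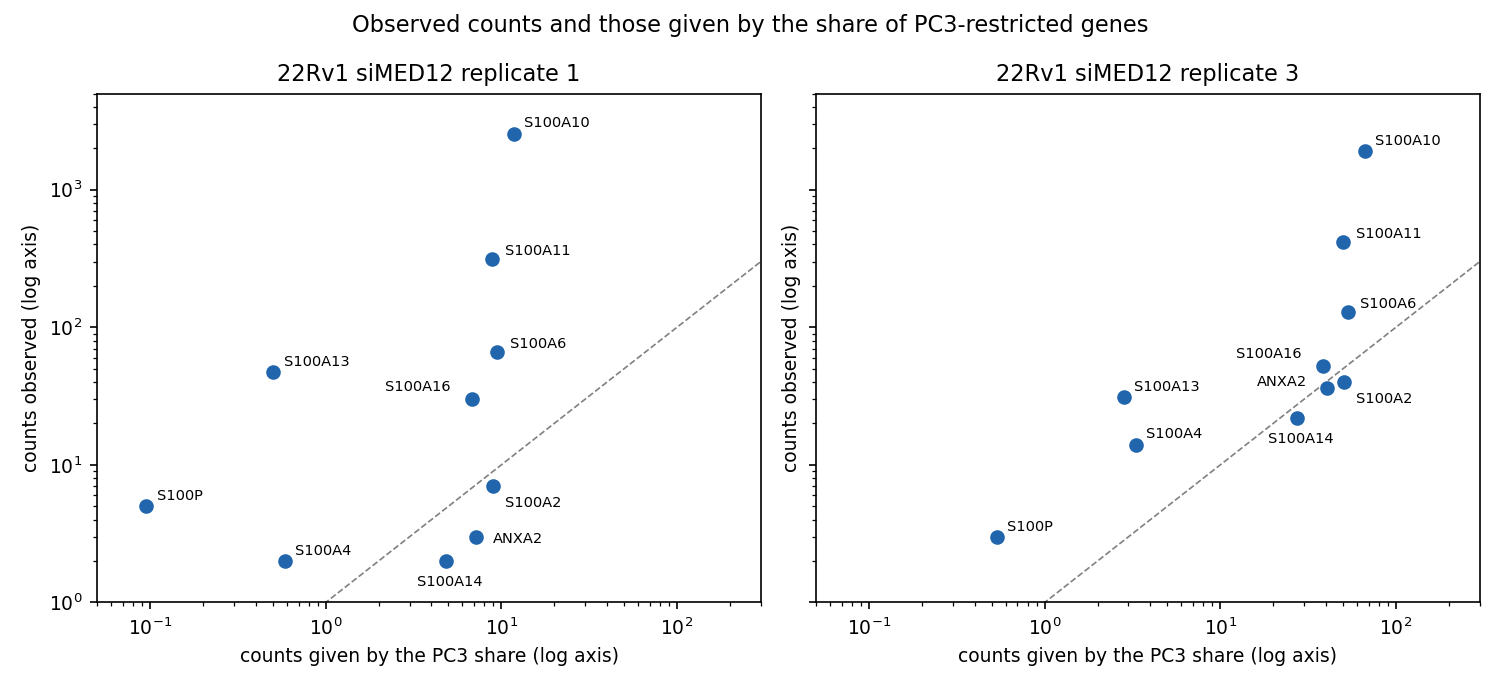
Counts observed (vertical, log axis) against counts that the share of PC3-restricted genes would bring (horizontal, log axis) for the 10 members in 22Rv1 siMED12 replicates 1 and 3, with a dashed line where they are equal. In replicate 3 ANXA2 (36 observed, 40.6 brought), S100A2 (40 and 50.5) and S100A14 (22 and 27.2) lie close to the line and S100A10 (1917 and 66.5) far above it.

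In LNCaP 0 of the 9 tested members passed the threshold with siMED12, beside 0.416% of all genes, and 0 had an unadjusted p under 0.05 in edgeR. DESeq2 and limma also gave 0. S100A11 was at 691, 559 and 646 CPM (log2 fold change 0.02, SE 0.15) and S100A13 had 15, 12 and 11 counts (0.11, SE 0.35), both overlapping siCtrl. The remaining members had few counts. ANXA2 and S100A16 were lower without overlap, S100A16 at 4.20, 5.34 and 2.30 CPM against 7.16 to 16.6 in siCtrl, with log2 fold changes of −2.31 (SE 1.21) and −1.31 (SE 0.66), beside 6.75% of all genes that were lower without overlap. S100A6 was at 4.20, 4.00 and 12.6 CPM (−1.10, SE 0.62). For these PC3-rich genes LNCaP siCtrl replicate 1, which had a PC3 share of 1.90%, held the highest siCtrl value.

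In PC3 0 of the 9 tested members passed the threshold in edgeR, DESeq2 or limma, and 0 had an unadjusted p under 0.05 in edgeR. Of all 10566 genes 0 passed by edgeR and DESeq2 and 1 by limma. All 9 fitted values were below 0, with a median of −0.19 beside −0.038 for all genes. S100A6 was at 1125 and 1284 CPM (log2 fold change −0.14, SE 0.20), S100A2 at 863 and 1000 CPM (−0.44, SE 0.24) and S100A4 at 38.2 and 51.8 CPM (−0.86, SE 0.44). S100A14 was at 509 and 641 CPM (−0.25, SE 0.18), and S100A16 at 866 and 834 CPM (−0.17, SE 0.17). S100A13 was the member without overlap, at 59.3 and 53.9 CPM against 63.1 to 74.8 CPM (−0.30, SE 0.24), beside 11.9% of all genes that were lower without overlap in this line. These fits leave out the replicate numbers. With a replicate block 2 members, S100A4 and S100A2, were past the threshold in PC3, beside 20 of all 10566 genes.

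**Figure D4:**
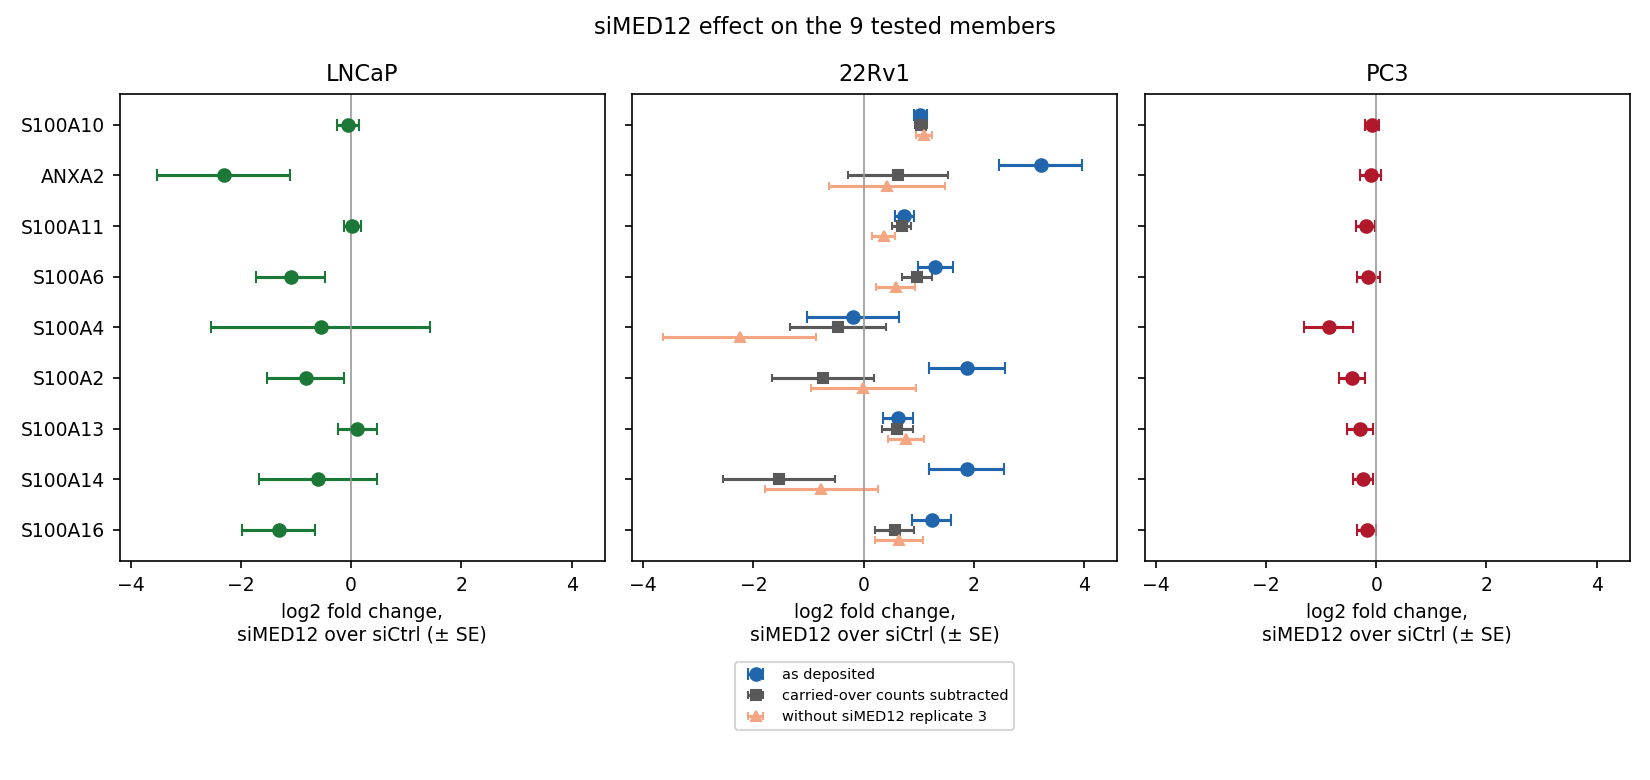
Fitted log2 fold change of siMED12 over siCtrl, with its SE as bars, for the 9 tested members in LNCaP, 22Rv1 and PC3. In 22Rv1 the values as deposited stand beside those with carried-over counts subtracted and those without siMED12 replicate 3. S100A10 is at 1.03, 1.04 and 1.10, whereas ANXA2 goes from 3.21 to 0.62 and 0.42.

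The other genes of these pathways were taken from lists of further S100 genes, annexins, plasminogen activation, and binding partners and receptors of the S100 proteins. With siMED12 in 22Rv1 2 list genes rose, beside 0.994% of all tested genes. They were ANXA3, 1 of 7 tested annexins, and PLAU, 1 of 9 tested genes of plasminogen activation. ANXA3 had 0, 1 and 0 counts in siCtrl and 3 and 14 in siMED12 (log2 fold change 4.00, SE 1.07, edgeR adjusted p = 0.0383). PLAU, the urokinase that activates plasminogen, had 15, 11 and 16 counts in siCtrl and 15 and 116 in siMED12 (log2 2.00, SE 0.50, adjusted p = 0.0290). Both rest on replicate 3. Without it ANXA3 was at 2.41 (adjusted p = 0.595) and PLAU at −0.30 (adjusted p = 0.906), and with carried-over counts subtracted ANXA3 was at 3.53 (adjusted p = 0.0969) and PLAU at −1.07. PLAU also missed the threshold by DESeq2 (adjusted p = 0.164) and limma (0.253). Leaving out any 1 of the 22Rv1 siCtrl libraries also ended both calls, with adjusted p of 0.051 to 0.157 for ANXA3 and 0.0846 to 0.0995 for PLAU.

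Of the 11 tested line markers 1 rose in 22Rv1, beside 0.994% of all tested genes. This was CAV1, the main protein of caveolae, which PC3 makes in quantity (484 to 572 CPM in siCtrl). CAV1 was at 16.9, 13.4 and 14.1 CPM in 22Rv1 siCtrl and at 35.0 and 60.3 CPM in siMED12, without overlap (log2 fold change 1.64, SE 0.31, edgeR adjusted p = 0.00206). It was at 1.29 (adjusted p = 0.0262) with carried-over counts subtracted and at 1.22 (adjusted p = 0.116) without replicate 3, which ended the call.

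In LNCaP 1 list gene fell, ENO1 of the 9 tested genes of plasminogen activation, beside 0.369% of all tested genes. ENO1 is a glycolytic enzyme that also binds plasminogen at the cell surface. It was at 2969, 3032 and 3327 CPM in siCtrl and at 2455, 1145 and 2306 CPM in siMED12 (log2 −0.66, SE 0.15, edgeR adjusted p = 0.0400). The ENO1 call was lost without LNCaP siMED12 replicate 2, the lowest library (log2 −0.38, adjusted p = 0.25), without any 1 of the LNCaP siCtrl libraries (adjusted p 0.13 to 0.256), by DESeq2 (adjusted p = 0.0527) and by limma (0.0597). Leaving out 22Rv1 siCtrl replicate 2, PC3 siCtrl replicates 2 or 3 or PC3 siMED12 replicate 1 ended it too (0.0562 to 0.0738). In PC3 0 genes of these 4 lists passed the edgeR, DESeq2 or limma test, with 2 at an unadjusted p under 0.05 in edgeR. With a replicate block 2 were past the threshold.

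Between the control lines these genes separated PC3 from the others. Of 7 tested annexins 6 were higher in PC3 than in LNCaP and 5 higher than in 22Rv1, and 0 were lower. ANXA1, a partner of S100A11, had 284 counts over the 3 PC3 siCtrl libraries, 2 in LNCaP and 3 in 22Rv1, a ratio to LNCaP of 132 with a counting interval of 36.2 to 1094. ANXA3 was higher in PC3 than in LNCaP by 5.74 on the log2 scale, on 370 counts in PC3 siCtrl and 6 in LNCaP siCtrl. ANXA3 passed the filter on low counts through PC3 alone, so no p is given. ANXA4 was higher in 22Rv1 than in LNCaP (log2 1.21, edgeR adjusted p = 7.92e-04) and ANXA5 lower (log2 −0.96, adjusted p = 3.35e-05). S100A9, the only one of 12 further S100 genes that was tested, was at 159 ± 8.74 CPM (SD, n = 3) in PC3 and at 3.34 CPM or less in the other siCtrl libraries.

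For plasminogen activation, 6 of 9 tested genes were higher in PC3 than in LNCaP and 1, ENO1, was lower, and 6 were higher than in 22Rv1 and 1, SERPINE2, was lower. PLAU was at 2936, 4868 and 3560 CPM in PC3 siCtrl and at 11.5 to 33.1 CPM in LNCaP and 18.4 to 20.5 CPM in 22Rv1 (log2 7.67 and 7.59). PLG, plasminogen itself, had 0 counts in all 16 libraries. In 22Rv1 against LNCaP only 1 of the 9 was higher, SERPINE2, an inhibitor of plasminogen activators, which ran from 178 to 698 CPM in 22Rv1 siCtrl (log2 4.13, SE 0.58, adjusted p = 7.03e-07). ENO1 (log2 −0.84, adjusted p = 4.53e-05) and CTSB, a lysosomal protease (log2 −0.71, adjusted p = 0.00172), were lower. SERPINE2 was lower in PC3 than in 22Rv1 (log2 −1.06, adjusted p = 0.0305) with overlapping libraries, a call that was lost without 22Rv1 siCtrl replicate 3 (log2 −0.32, adjusted p = 0.538), without PC3 siCtrl replicate 2 (−0.74, adjusted p = 0.16) or without PC3 siCtrl replicate 3 (−0.91, adjusted p = 0.106). That SERPINE2 call was also lost with all libraries kept, by DESeq2 (log2 −1.02, adjusted p = 0.317) and by limma (log2 −0.99, adjusted p = 0.126).

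Of the 10 tested binding partners and receptors, 5 were higher and 5 lower in PC3 than in LNCaP, 5 higher and 4 lower than in 22Rv1, and 4 higher and 1 lower in 22Rv1 than in LNCaP. AHNAK, a large scaffold bound by the complex of S100A10 and annexin A2, was at 63.3 ± 6.45 CPM (SD, n = 3) in PC3, 8.82 ± 0.403 in 22Rv1 and 2.80 ± 2.17 in LNCaP (PC3 against LNCaP log2 4.27). AHNAK passed the filter on low counts through PC3 alone, so no p is given. CACYBP, the partner of S100A6, was higher in 22Rv1 than in LNCaP (log2 0.77, edgeR adjusted p = 2.42e-05) and lower in PC3 than in 22Rv1 (log2 −1.22, adjusted p = 5.96e-09). EZR, a membrane to cytoskeleton linker, was higher in 22Rv1 than in LNCaP (log2 0.73, adjusted p = 0.0146), a call lost without LNCaP siCtrl replicate 2 (log2 0.62, adjusted p = 0.0679) or without 22Rv1 siCtrl replicate 3 (log2 0.59, adjusted p = 0.0867). MYH10, a heavy chain of the nonmuscle myosin family that S100A4 binds, was lower in 22Rv1 (log2 −1.92) and in PC3 (log2 −2.24) than in LNCaP. MYH10 passed the filter on low counts through LNCaP alone, so no p is given.

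Of the 8752 tested genes with at least 20 CPM in a group, those with the pattern most like S100A10 over the 6 groups were APOE, MDFIC and BEX1, as the mean absolute difference of group means taken as a percent of the highest group (3.38, 4.51 and 5.30 percentage points). S100A10 stood at 1.91% and 1.83% of its highest group in LNCaP siCtrl and siMED12, 48.9% and 100% in 22Rv1, and 64.2% and 61.0% in PC3. APOE stood at 3.60%, 3.68%, 61.6%, 100%, 64.8% and 57.5% in the same order. These likenesses rest on few counts. In 22Rv1 siCtrl and siMED12 APOE had 31 and 40 counts in all, MDFIC 27 and 45 and BEX1 55 and 73, where S100A10 had 2723 and 4472. The genes most like ANXA2 were CD40, TRBC2 and LGALS3 (0.245, 0.392 and 0.395 points), all with their highest level in PC3 siCtrl and at most 3.44% of it in 22Rv1. CD40, the nearest, had only 75 counts over the PC3 siCtrl libraries. The 9 other tested genes within 500 kb of S100A10 included S100A11, and their log2 fold changes in 22Rv1 ran from −0.27 to 1.29.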

How the data were processed

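RNA was measured by BRB-seq, a barcoded method that reads transcript 3′ ends, in 16 libraries assigned by their labels to 6 groups of a line and a treatment. The authors used STARsolo with Gencode 43 (GRCh38.p13) for alignment and counting and deposited raw counts for 62703 genes. Whether molecular identifiers were collapsed and how strand was used are not given in the sources used here. The authors also deposited log2 CPM made with edgeR, which recomputation from the counts matched to within 5.0e-14. Library totals ran from 479118 to 993807 counts (median 764494), and 0 counts allow up to 3 counts, or 3.15 to 6.22 CPM. Intervals and floors cover counting error only. Pairs of replicates differed by 1.60 to 3.43 times the variance of sampling alone.

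Counts were tested with edgeR 4.0.16 (R 4.3.3) by its quasi-likelihood method, after filterByExpr (minimum count 10, minimum total 15) and TMM scaling, in 1 fit of the 16 libraries with 6 group means. p-values are 2-sided and adjusted by Benjamini and Hochberg over 10566 genes, with a threshold of 0.05. The SE is the log2 fold change divided by the root of F. The script was tested on simulated data. The labels do not say whether replicates are separate cultures, so p-values measure the spread between these libraries. Alternatives were RLE scaling, all genes with at least 1 count, genes that reached 10 counts in all libraries, DESeq2 1.42.0, limma 3.58.1 on log2 CPM, a replicate block, subtraction of counts carried over from another line, and leaving out each library. The earlier form of the edgeR test was added after seeing the data. Coordinates come from Gencode release 44 and promoters from RefSeq.

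The members and the lists were chosen with earlier results of these data known. All members were named. Of the other lists, each gene past the threshold in a siMED12 contrast or a difference of siMED12 effects was named, and for each comparison of siCtrl lines the text draws on up to 2 genes of each sign and list with the largest change and at least 20 CPM in the higher line. Likeness used the 3 nearest genes. Of 8 listed pseudogenes 3 had no row of that name and 1, ANXA2P2, was tested.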

Additional observations from a re-analysis of the deposited data

Results flagged for a closer look

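Genes restricted to PC3 stood at 5.14% of their PC3 level in 22Rv1 siMED12 replicate 3, against 0.754% in 22Rv1 siMED12 replicate 1. In the 22Rv1 siCtrl libraries the share was 0.638% to 0.924%, which the rule that took these genes held low. These genes are neither members nor in a list. The part of this signal in the differences between 22Rv1 siMED12 and siCtrl is given beside each member. The 3 genes restricted to LNCaP stood at 2.99% in PC3 siMED12 replicate 3, above the 0.368% of PC3 siMED12 replicate 1. The PC3 siCtrl libraries, held low by the same rule, were at 0.480% to 0.605%.

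CAV1 differed between lines in its siMED12 effect, which was higher in 22Rv1 than in PC3 by 1.89 on the log2 scale (SE 0.34, edgeR adjusted p = 0.0101). The call was lost with carried-over counts subtracted (log2 1.54, adjusted p = 0.0656), by limma (1.73, adjusted p = 0.13), without 22Rv1 siMED12 replicate 3 (1.48, adjusted p = 0.178) and without 22Rv1 siCtrl replicates 2 (1.83, adjusted p = 0.079) or 3 (1.84, adjusted p = 0.0528).

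S100A13 siMED12 libraries lay on opposite sides of their siCtrl libraries in 22Rv1 and PC3. The PC3 log2 fold change was −0.30 with a 95% interval of −0.76 to 0.17, so a fall in PC3 is not shown. Both 22Rv1 siMED12 libraries were above all 22Rv1 siCtrl libraries and both PC3 siMED12 libraries below all PC3 siCtrl libraries, and the effects differed by 0.92 on the log2 scale. It was taken from the direction of the libraries alone. No p is given, since the members were chosen on these contrasts, and the difference was not past the threshold in the fit over all genes. The same held for 177 of the 10566 tested genes (1.68%).

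S100A16 was higher without overlap in 22Rv1 and lower without overlap in LNCaP, with effects that differed by 2.55 on the log2 scale. This difference was not past the threshold either and is given without a p for the same reason, and 66 genes (0.625%) had the same pattern. The PC3 share would bring 38.5 of the 52 S100A16 counts in 22Rv1 siMED12 replicate 3, and LNCaP siCtrl replicate 1, the library with the highest S100A16 level of its group, had a PC3 share of 1.90%.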

How the results depend on the processing

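The S100A10 difference in 22Rv1 kept its direction and its size in the 24 alternatives, with log2 values of 0.94 to 1.10 when 1 library was left out. Counts of genes past the threshold moved more. With siMED12 in 22Rv1, 4 members were past it, against 2 among genes that reached 10 counts in all libraries, 2 with limma and 2 with carried-over counts subtracted. Leaving out 1 library gave 1 to 7: 1 without 22Rv1 siMED12 replicate 3, 7 without replicate 1, and 2 without 22Rv1 siCtrl replicate 1 or 2. The 2 list genes in 22Rv1 became 0 under the filter of 10 counts, 1 with DESeq2, 1 with limma, 0 after subtraction and 0 to 3 with a library left out, and PLAU turned to -1.07 after subtraction and ran from -0.30 without 22Rv1 siMED12 replicate 3 to 2.90 without replicate 1. The 1 list gene in LNCaP became 0 under the filter of 10 counts, with DESeq2 and with limma, and 0 to 1 with a library left out. The 0 list genes in PC3 became 1 with all genes that had at least 1 count and 0 to 1 with a library left out (1 without PC3 siCtrl replicate 2). Under the filter of 10 counts, which left few members to test, the 4, 9 and 9 members called between siCtrl lines each became 2, and the 24 and 22 list genes called in PC3 against LNCaP and 22Rv1 became 11 and 10.

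For the difference of siMED12 effects between 22Rv1 and LNCaP, the 1 member past the threshold, S100A10, became 6 with all genes that had at least 1 count, 2 with DESeq2, 0 after subtraction and 0 to 1 with a library left out, where 14 of the 16 libraries gave 0. Between 22Rv1 and PC3 the 1 member became 6, 2 and, with a library left out, 1 to 7 (7 without 22Rv1 siMED12 replicate 1). For list genes the 0 in both became 2 and 3 with all genes that had at least 1 count, and 0 to 1 and 0 to 3 with a library left out, the highest values again without 22Rv1 siMED12 replicate 1. Where this left 1 siMED12 library, it was assumed to vary like the other groups. Except where a filter left fewer genes to test, the cause of these changes was not tested. At 5 to 22 counts in a library, the depth also limits what can be said of MED12.

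The labels give replicate numbers that the groups of a line share. The deviations of same-numbered libraries correlated at 0.177, 0.132 and 0.135 in LNCaP, 0.190 and 0.253 in 22Rv1, and 0.117 and 0.0787 in PC3. Differently numbered ones ran from −0.112 to −0.0264, from −0.253 to 0.092 and from −0.117 to 0.0572. For each siMED12 library the same-numbered siCtrl library was the highest, in PC3 replicate 3 by little (0.0787 against 0.0572). With 2 siMED12 libraries, as in 22Rv1 and PC3, the values of 1 mirror those of the other. What the numbers stand for is not stated, and the main fit leaves them out. With a replicate block, 2 members (S100A4 and S100A2) and 2 list genes were past the threshold with siMED12 in PC3, against 0 and 0 without it, beside 20 of all 10566 genes against 0. For differences of effects the block gave 4 members between 22Rv1 and LNCaP and 5 between 22Rv1 and PC3, and 1 and 3 list genes, beside 71 and 73 of all genes. In LNCaP it changed no count of calls among the members or list genes, and S100A10 in 22Rv1 was at 1.00.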
